A study of Mus musculus with 14 samples.

Results

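The expression of 31 glycolysis genes was compared between the ileum mucosa of 7 WT and 7 IKO mice after 15 weeks on a high fat diet (HFD). The genes were picked by symbol from the count table and cover each step from glucose phosphorylation to lactate, with the isoforms of each enzyme, the enzymes that set fructose-2,6-bisphosphate, and 3 sugar or lactate carriers. They filled 32 of 54532 rows, since Aldoa has another row that is nearly empty and was not used. In all 29 of the 31 passed the filter on low counts. Eno2 and Ldhb did not. All mice were males that carried the Ncor1 gene as Ncor1 flox/flox. The WT mice had no Cre, whereas the IKO mice also carried Cre under the villin promoter, which is active in the gut epithelium and removes the floxed part of Ncor1 there. The diet drew 60% of its energy from fat. By the paper's methods it began at 7 to 8 weeks of age, while a figure legend of the paper gives older mice. The sample titles give no age. The samples are labelled as intestinal epithelial cells (IECs), but they were scrapings of washed mucosa, so that other cells of the gut wall could be present. Each sample came from a different mouse.

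Glycolysis splits glucose into pyruvate in the cytosol, and lactate dehydrogenase can pass the electrons of NADH on to pyruvate to make lactate. Hexokinase, phosphofructokinase and pyruvate kinase catalyse the steps that are close to irreversible, and most steps can be carried out by several isoforms from separate genes. In the small intestine, glucose taken up from the lumen is partly burned or turned into lactate by the enterocytes, and the rest leaves through their basolateral side. NCoR1 is a corepressor that binds unliganded nuclear receptors and recruits histone deacetylase.

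The deletion was visible in the RNA. Ncor1 was at 106, 130 and 194.5 CPM (lowest, median and highest WT mouse) against 31.7, 47.7 and 63.95 CPM in IKO. CPM are counts per 1000000 counts of a library after TMM scaling, which evens out libraries through genes that change little. Every IKO mouse was below every WT mouse. The log2 fold change was −1.41 with a standard error (SE) of 0.18 (edgeR's quasi-likelihood test, adjusted p = 5.1e-04 over all genes tested). Total counts ran from 14749669 to 21557468. A few libraries stood apart. IKO 4 had 50.3% and WT 3 had 23.9% of their counts on mitochondrially encoded genes, against 3.49% to 10.3% in the other 12. WT 4 held 11029 CPM summed over 7 smooth muscle markers, against at most 66.5 CPM in the other WT mice and 810 CPM in IKO 1, the highest IKO mouse. It was also highest in neuron and glia markers (215 CPM) and in fibroblast markers (354 CPM). The TMM scaling factors differed between the genotypes as well, from 0.931 to 1.53 in WT and from 0.579 to 0.967 in IKO. Dividing by total counts alone lowered the median log2 fold change of all genes from −0.09 to −0.49. For the glycolysis genes, values on total counts are therefore given where a call differs. For single genes outside that set they are not given, so a call there may differ on total counts.

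In IKO mice 11 of the 29 tested glycolysis genes were higher than in WT mice and 0 were lower (37.9% of those tested, edgeR, adjusted p under 0.05). Over all 13846 genes tested 8.67% passed in either direction and 4.38% passed as higher. The 11 were Hk2, Gpi1, Pfkl, Pfkp, Pfkfb3, Aldoc, Tpi1, Pgk1, Bpgm, Eno3 and Ldha, and their increases ran from 1.57-fold (Pfkp) to 2.91-fold (Eno3). They spread over 8 of the 10 groups into which the genes were ordered by step. The groups without a call were pyruvate kinase and the glucose and lactate carriers. The log2 fold change was above 0 for 23 genes and below 0 for 6, with a median of 0.53 beside −0.09 over all genes tested. Unadjusted p was under 0.05 for 16 of the 29, of which 15 were higher and 1, Slc2a3, was lower. The share of all genes at that unadjusted threshold is not given, so such counts, here and in the lists below, lack a background. DESeq2, which tested all 31 genes, called 13 as higher, adding Pkm and Slc16a3, and 0 as lower. Over all 29041 genes that DESeq2 tested, 2571 were called, 46.25% of them as higher. In 5 genes (Aldoc, Tpi1, Pgk1, Bpgm and Ldha) every IKO mouse was above every WT mouse on the TMM scale, as was the case for 1.83% of all genes tested.

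**Figure D1:**
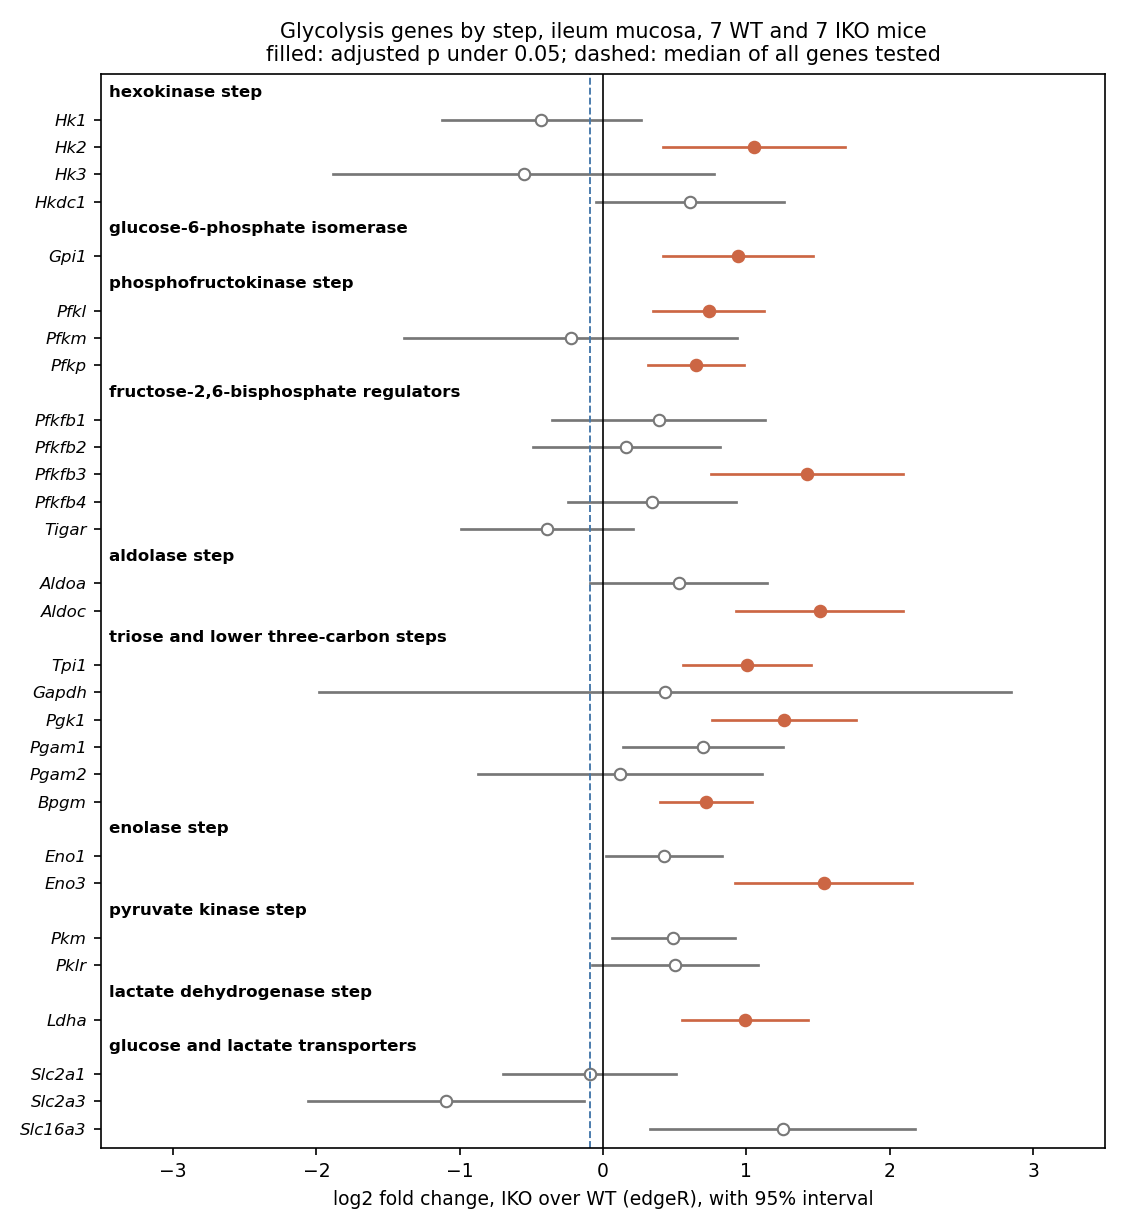
Log2 fold change of IKO over WT (x axis) for the 29 tested glycolysis genes, grouped by step along the y axis, with 95% intervals from edgeR. Filled points are the 11 genes with an adjusted p under 0.05, all to the right of 0, and the dashed line is the median of all genes tested (−0.09).

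The number of calls depended on the libraries and on the scaling. Without WT 4 and IKO 4 there were 8 calls among the 29, all higher, where 2.85% of all genes tested passed as higher. The adjusted p was then 0.063 for Hk2, 0.05035 for Pfkl and 0.057 for Pfkp (edgeR). Without WT 3 and IKO 4 there were 10, all higher, with Gpi1 at an adjusted p of 0.058 (edgeR). Of all 13929 genes tested then, 648 passed, 65.74% of them as higher. Leaving out IKO 5 alone gave 7 calls, all higher, the fewest for any mouse left out. Of all 14118 genes tested then, 515 passed, 65.05% of them as higher. Pfkfb3, Aldoc, Tpi1, Pgk1, Bpgm, Eno3 and Ldha passed with any 1 mouse left out. Pfkl was lost without IKO 5 (adjusted p = 0.056), Pfkp without IKO 1 or IKO 5 (up to 0.058), and Gpi1 without WT 1, WT 7, IKO 1, IKO 2 or IKO 5 (up to 0.067, edgeR). Hk2 passed only without WT 3, WT 5, IKO 2 or IKO 4, and its adjusted p reached 0.088. With total counts in place of TMM, the genes higher in IKO were Pfkfb3, Aldoc, Pgk1 and Eno3, 4 in all, and Slc2a3 was lower. On that scale 3380 of all 13846 genes tested passed, of which only 5.77% were higher. With TMM 1200 passed, of which 50.6% were higher. The median of the 29 genes on total counts was 0.17, beside −0.49 over all genes. The adjusted p on total counts was 0.12 for Hk2, 0.10 for Gpi1, 0.26 for Pfkl and 0.29 for Pfkp (edgeR). With the total of the nuclear genes alone, Tpi1 and Ldha passed as well. The 11 genes kept a log2 fold change above 0 under each of 28 alternatives, and Aldoc and Pgk1 passed the test in each of them. On total counts the WT and IKO ranges overlapped for every glycolysis gene tested, and on the nuclear total they did for all but Pgk1. The matching shares over all genes tested are not given here.

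Promoters of Hk2, Pfkfb3, Pgk1 and Ldha are shown because they are the called genes whose 250 bases before the transcription start hold ACGTG, the core bound by hypoxia-inducible factors and, as CACGTG, by E-box factors such as MYC and ChREBP. The windows are from RefSeq on GRCm38.p6, read 5′ to 3′ on the strand of the gene. Capitals mark ACGTG on either strand, which reads CACGT on the other strand, and a run of CACGTG holds it on both.
Hk2: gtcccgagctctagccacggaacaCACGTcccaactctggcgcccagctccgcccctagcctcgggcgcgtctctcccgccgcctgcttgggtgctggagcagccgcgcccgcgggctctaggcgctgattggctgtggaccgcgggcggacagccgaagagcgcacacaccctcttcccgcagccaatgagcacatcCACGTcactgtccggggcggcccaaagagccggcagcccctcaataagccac
Pfkfb3: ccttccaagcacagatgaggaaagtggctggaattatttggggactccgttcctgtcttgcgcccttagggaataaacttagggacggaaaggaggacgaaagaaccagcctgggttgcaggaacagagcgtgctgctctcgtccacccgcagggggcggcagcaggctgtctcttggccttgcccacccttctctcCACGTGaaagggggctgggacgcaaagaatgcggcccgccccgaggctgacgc
Pgk1: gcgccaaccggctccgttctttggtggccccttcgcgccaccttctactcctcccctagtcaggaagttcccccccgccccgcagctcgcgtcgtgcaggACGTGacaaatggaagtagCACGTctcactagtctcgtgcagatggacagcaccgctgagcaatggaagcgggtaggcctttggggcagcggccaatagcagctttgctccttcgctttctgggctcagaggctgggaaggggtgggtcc
Ldha: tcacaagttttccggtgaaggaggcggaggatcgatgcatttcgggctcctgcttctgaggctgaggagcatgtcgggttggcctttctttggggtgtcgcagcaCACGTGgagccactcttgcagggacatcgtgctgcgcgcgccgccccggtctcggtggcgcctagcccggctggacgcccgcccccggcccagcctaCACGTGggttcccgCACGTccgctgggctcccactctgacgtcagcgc
The Hk2 window is chr6:82774455-82774704 on the minus strand, that of Pfkfb3 is chr2:11502091-11502340 on the minus strand, that of Pgk1 is chrX:106186850-106187099 on the plus strand and that of Ldha is chr7:46845554-46845803 on the plus strand. They held 2, 1, 2 and 3 separate stretches. Pfkfb3 and Ldha have 2 windows each, and the one with the most matches is shown. Of the 30 glycolysis genes with a window, 12 held ACGTG in at least 1 window, and so did 18.5% of all 27025 genes in the table. Among the called genes it was 4 of 11. The genes with ACGTG that were not called were Aldoa, Hk3, Pfkfb2, Pfkm, Pgam1, Pkm, Slc16a3 and Slc2a1. The motif was therefore not particular to the called genes. GCGTG was found in 16 of the 30 glycolysis genes, with 6 of the 11 called genes among them, and in 30.9% of all genes. CACGTG was found in 4 of the 30, with 2 of the 11 among them, and in 6.86% of all genes. The 30 genes had 48 windows and all 27025 genes had 32851, and more windows per gene make a match more likely. These are matches of letters in a short window, and binding was not measured.

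Hexokinase traps glucose in the cell as glucose-6-phosphate. Hk2, the inducible hexokinase that binds mitochondria, had 13.7, 24.9 and 49.8 CPM in WT (lowest, median, highest mouse) and 28.3, 62.5 and 78.8 CPM in IKO. All 7 IKO mice lay above the WT median and 4 above the highest WT mouse, WT 5. Hk2 was 2.08-fold higher (95% interval 1.34 to 3.22, edgeR, adjusted p = 0.042), the weakest of the 11 calls: it passed in 13 of 28 alternatives. Hkdc1, a hexokinase domain protein that is abundant in gut epithelium, had by far the highest level of this step per length, with 52.9 ± 21.1 FPKM in WT and 82.4 ± 29.4 FPKM in IKO (SD, n = 7 each). Its CPM were 152, 267 and 406.5 in WT and 134, 471 and 619.5 in IKO. IKO 4 was below every other mouse, the ranges overlapped, and the log2 fold change of 0.61 (SE 0.31, adjusted p = 0.20) did not pass. Hk1, the housekeeping form, and Hk3, a form of blood cells, were low, at 1.65 and 0.303 FPKM in WT. Hk1 gave −0.43 on the log2 scale with WT 4 at 34.3 CPM, and 0.01 without WT 4 and IKO 4.

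Glucose-6-phosphate isomerase makes fructose-6-phosphate. Its gene Gpi1 had 248, 264 and 441 CPM in WT against 376, 627 and 1133 CPM in IKO. The highest WT mouse was WT 4, and 6 of 7 IKO mice were above it. The 1.92-fold increase (1.34 to 2.77) passed with an adjusted p of 0.032 (edgeR) and in 18 of 28 alternatives. Without IKO 2, which had 1133 CPM, the log2 fold change was 0.73.

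Phosphofructokinase commits the sugar to glycolysis. The platelet form Pfkp made up 76.0% ± 6.56 of the summed phosphofructokinase FPKM in WT and 77.1% ± 4.44 in IKO (SD, n = 7 each). Pfkp had 210, 243 and 331 CPM in WT and 318, 407 and 473 CPM in IKO, with 6 of 7 IKO mice above the highest WT mouse. It was 1.57-fold higher (1.24 to 1.98, edgeR, adjusted p = 0.023). The liver form Pfkl had 26.7, 31.6 and 44.9 CPM in WT and 36.4, 49.6 and 83.9 CPM in IKO. WT 3 was the only WT mouse within the IKO range, and Pfkl was 1.67-fold higher (1.27 to 2.18, adjusted p = 0.025). Pfkm, the muscle form, had 12.6 CPM in WT 4 and at most 6.14 CPM in any other mouse. Its log2 fold change was −0.23 (SE 0.55), and it was 0.58 without WT 4 and IKO 4.

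Fructose-2,6-bisphosphate is the strongest activator of phosphofructokinase, and the PFKFB enzymes make and remove it. Pfkfb3, whose kinase side dominates, had 11.02, 14.8 and 17.5 CPM in WT and 10.7, 34.0 and 71.2 CPM in IKO. IKO 2 was below every WT mouse, and the other 6 IKO mice were all above WT 3, the highest WT mouse. Pfkfb3 was 2.68-fold higher (1.69 to 4.27, edgeR, adjusted p = 0.016). Pfkfb4 was the most abundant PFKFB gene per length, at 22.1 ± 12.4 FPKM in WT and 28.7 ± 4.30 in IKO (SD, n = 7 each). It had 50.4, 104 and 238 CPM in WT and 114, 149 and 161 CPM in IKO, and WT 2 was above every IKO mouse. The log2 fold change of 0.34 (SE 0.28, adjusted p = 0.42) did not pass. Pfkfb1 and Pfkfb2 gave 0.39 and 0.16 on the log2 scale without a call. Tigar, a phosphatase that lowers fructose-2,6-bisphosphate, gave −0.39 (SE 0.28), with 22.6 CPM in WT 4 against 4.62 to 9.53 CPM in all the other mice, and 0.02 without WT 4 and IKO 4.

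Aldolase cuts the 6-carbon sugar. Aldoc, the form best known from brain, had 2.25, 3.65 and 7.20 CPM in WT and 7.70, 11.2 and 16.3 CPM in IKO, on 42 to 316 counts. Each IKO mouse was above WT 3, the highest WT mouse. It was 2.85-fold higher (1.91 to 4.26, edgeR, adjusted p = 0.0061) and passed in all 28 alternatives. Aldoa, the form with the higher level of the pair, had 305, 366 and 790 CPM in WT and 361, 651 and 1214 CPM in IKO. The ranges overlapped and the log2 fold change of 0.53 (SE 0.29, adjusted p = 0.23) did not pass.

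Of the 6 genes that handle the triose phosphates and their products down to 2-phosphoglycerate, 3 rose. Triosephosphate isomerase, Tpi1, had 331, 470 and 748 CPM in WT and 788, 1036 and 1165 CPM in IKO. Phosphoglycerate kinase, Pgk1, which makes ATP, had 134, 222 and 321 CPM in WT and 403, 495 and 752 CPM in IKO. Bisphosphoglycerate mutase, Bpgm, which makes 2,3-bisphosphoglycerate, had 50.9, 71.8 and 84.2 CPM in WT and 92.8, 111 and 145 CPM in IKO. In each of these genes all IKO mice were above all WT mice. Tpi1 was 2.01-fold (1.47 to 2.73, edgeR, adjusted p = 0.012), Pgk1 2.40-fold (1.69 to 3.40, adjusted p = 0.0074) and Bpgm 1.65-fold higher (1.32 to 2.06, adjusted p = 0.012). On total counts Tpi1 had an adjusted p of 0.054 and Bpgm of 0.072. Phosphoglycerate mutase 1, Pgam1, gave 0.70 (SE 0.26, adjusted p = 0.095), with 37.4, 73.4 and 133 CPM in WT and 93.3, 139 and 188.5 CPM in IKO. All 7 IKO mice were above the WT median, and 4 were above the highest WT mouse. The muscle form Pgam2 was at 0.0644 to 2.41 CPM over all 14 mice.

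Gapdh, the dehydrogenase that yields NADH and a common reference gene, varied far more between mice than between genotypes. It had 4.58, 31.9 and 155 CPM in WT and 4.49, 12.6 and 559 CPM in IKO, or 78 to 9489 counts. The highest mouse, IKO 2, exceeded the lowest by 125-fold, and WT 2, WT 3 and WT 7 were above 100 CPM while the other WT mice were at or below 31.9. The SD of its log2 CPM over the 14 mice was 2.23, against a median of 0.47 over 4268 genes with a mean log2 CPM above 5. The mean of Gapdh itself was 4.51, so these were genes of a higher level. The log2 fold change of 0.43 had an SE of 1.14 (adjusted p = 0.82). It was −2.60 without IKO 2 and was below 0 in 5 other alternatives. Reads of Gapdh can also fit its many processed pseudogenes. The 2 rows named after Gapdh as such copies held at most 2 counts together. Copies under other names were not counted, so the reads that went to pseudogenes are not known.

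**Figure D2:**
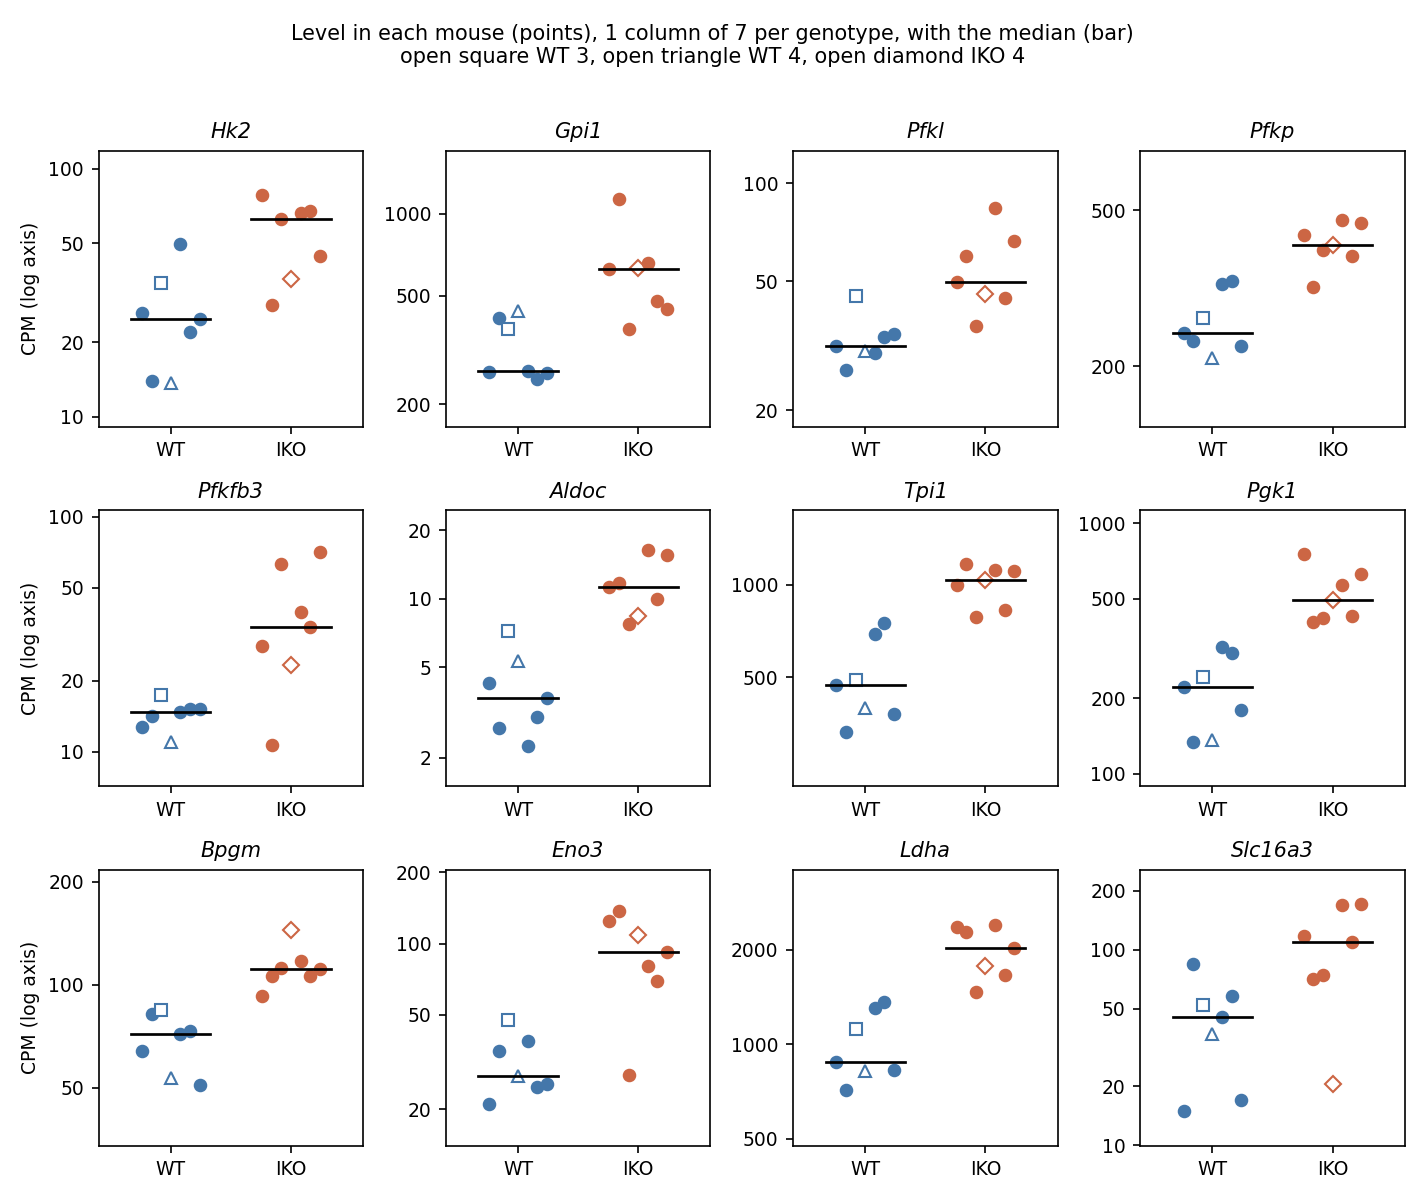
Level of each of the 11 called genes and of Slc16a3 in every mouse, in CPM on a log axis, with the 7 WT mice on the left, the 7 IKO mice on the right and the median as a bar. Open symbols are WT 3, WT 4 and IKO 4. Aldoc, Tpi1, Pgk1, Bpgm and Ldha have no overlap, and for Pfkfb3 IKO 2 alone is below the WT mice while the other 6 IKO mice are above them.

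Enolase removes water from 2-phosphoglycerate. Eno3, the form typical of muscle, had 21.0, 27.6 and 47.6 CPM in WT and 27.8, 91.9 and 137 CPM in IKO. IKO 3 was within the WT range and the other 6 IKO mice were above it. Eno3 was 2.91-fold higher (1.89 to 4.46, edgeR, adjusted p = 0.0078), the largest increase of the 11. WT 4, with the most smooth muscle RNA, was at the WT median for Eno3. In IKO the highest Eno3 values, 137 CPM in IKO 2 and 125 CPM in IKO 1, came from the mice with the most smooth muscle RNA of that genotype (395 and 810 CPM over the 7 markers), and the part of muscle RNA in the Eno3 difference was not tested. Eno1, the widespread form, was the main enolase per length with 92.5 ± 22.0 FPKM in WT and 127 ± 24.7 FPKM in IKO (SD, n = 7 each). Its CPM were 351, 501.5 and 678 in WT and 520, 660 and 870 in IKO, and the log2 fold change of 0.43 (SE 0.19, adjusted p = 0.15) did not pass. Eno2, the neuronal form, had 14.9 CPM in WT 4 and at most 2.51 CPM in any other mouse. Eno1b, a near copy of Eno1, held 34 to 317 counts against 5700 to 15835 for Eno1.

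Pyruvate kinase makes the last ATP. Pkm had 415.5, 751 and 808 CPM in WT and 704.5, 946 and 1101 CPM in IKO, and 5 of 7 IKO mice were above the highest WT mouse. The log2 fold change of 0.49 (SE 0.20, unadjusted p = 0.027 and adjusted p = 0.12 by edgeR) did not pass, whereas DESeq2 called it. Pklr, the liver and red cell form that is also made in the small intestine, had 110, 172 and 322 CPM in WT and 149, 282 and 367 CPM in IKO, and its 0.50 (SE 0.27, adjusted p = 0.22) did not pass. Counts per gene cannot separate the M1 and M2 splice forms of Pkm.

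Ldha, the subunit that favours making lactate from pyruvate, had the highest level per length of all 31 genes. It had 712, 875 and 1362 CPM in WT and 1463, 2020 and 2398 CPM in IKO, so all IKO mice were above all WT mice. It was 1.99-fold higher (1.47 to 2.69, edgeR, adjusted p = 0.012), and with total counts its adjusted p was 0.057. Ldhb, the heart subunit, had 72.9 CPM in WT 4, 0 to 1.24 CPM in the other WT mice and 0.0516 to 6.55 CPM in IKO. The highest IKO mouse, IKO 1, also had the most smooth muscle RNA of its genotype. Ldha made up 97.7% ± 5.91 of the lactate dehydrogenase FPKM in WT and 99.9% ± 0.212 in IKO (SD, n = 7 each), and it was 84.3% in WT 4.

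Of the 3 carriers 0 passed the edgeR test, against 2 at an unadjusted p under 0.05 (Slc16a3 higher, Slc2a3 lower) and 1 by DESeq2 (Slc16a3). Slc16a3, the lactate exporter MCT4, had 14.9, 45.2 and 84.7 CPM in WT and 20.6, 109.5 and 171.5 CPM in IKO. IKO 4 was at 20.6 CPM and the other 6 IKO mice were at 71.2 CPM or more. The log2 fold change of 1.25 (SE 0.43, edgeR, adjusted p = 0.076) did not pass with all mice. It passed without IKO 4, without WT 2 and with sample weights. Slc2a1, the glucose carrier GLUT1, gave −0.09 (SE 0.28), with 7.43 to 12.9 CPM in WT and 2.30 CPM in IKO 4, and 9.40 to 13.3 CPM in the other IKO mice. Slc2a3, the carrier GLUT3, was low with 12 to 167 counts. It gave −1.10 (SE 0.45, adjusted p = 0.12), with the highest value, 7.93 CPM, in WT 4. On total counts it was −1.54 and passed (edgeR, adjusted p = 0.037). On that scale 3380 of all 13846 genes tested passed, only 5.77% of them as higher, and the median over all genes was −0.49.

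The order of the members by level was set per length, since FPKM divide the counts by the length of the gene. In WT the means were 297 FPKM for Ldha, 178 for Tpi1, 151 for Aldoa, 128 for Pkm, 95.9 for Pgk1, 92.5 for Eno1, 60.8 for Pklr, 52.9 for Hkdc1, 48.9 for Gpi1 and 44.8 for Pgam1. In IKO Ldha stayed highest with 605 FPKM and Tpi1 followed with 366, and Pgk1 with 236 stood above Aldoa with 224 and Pkm with 184. In WT only the gaps from Ldha to Tpi1 and from Eno1 to Pklr were larger than the larger SD of the 2 genes, so the order of the other neighbours was not resolved. The SDs of Aldoa, for example, were 59.1 FPKM in WT and 97.3 FPKM in IKO. The genes under 1 FPKM in both genotypes were Hk3, Pfkfb1, Eno2 and Slc2a3.

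**Figure D3:**
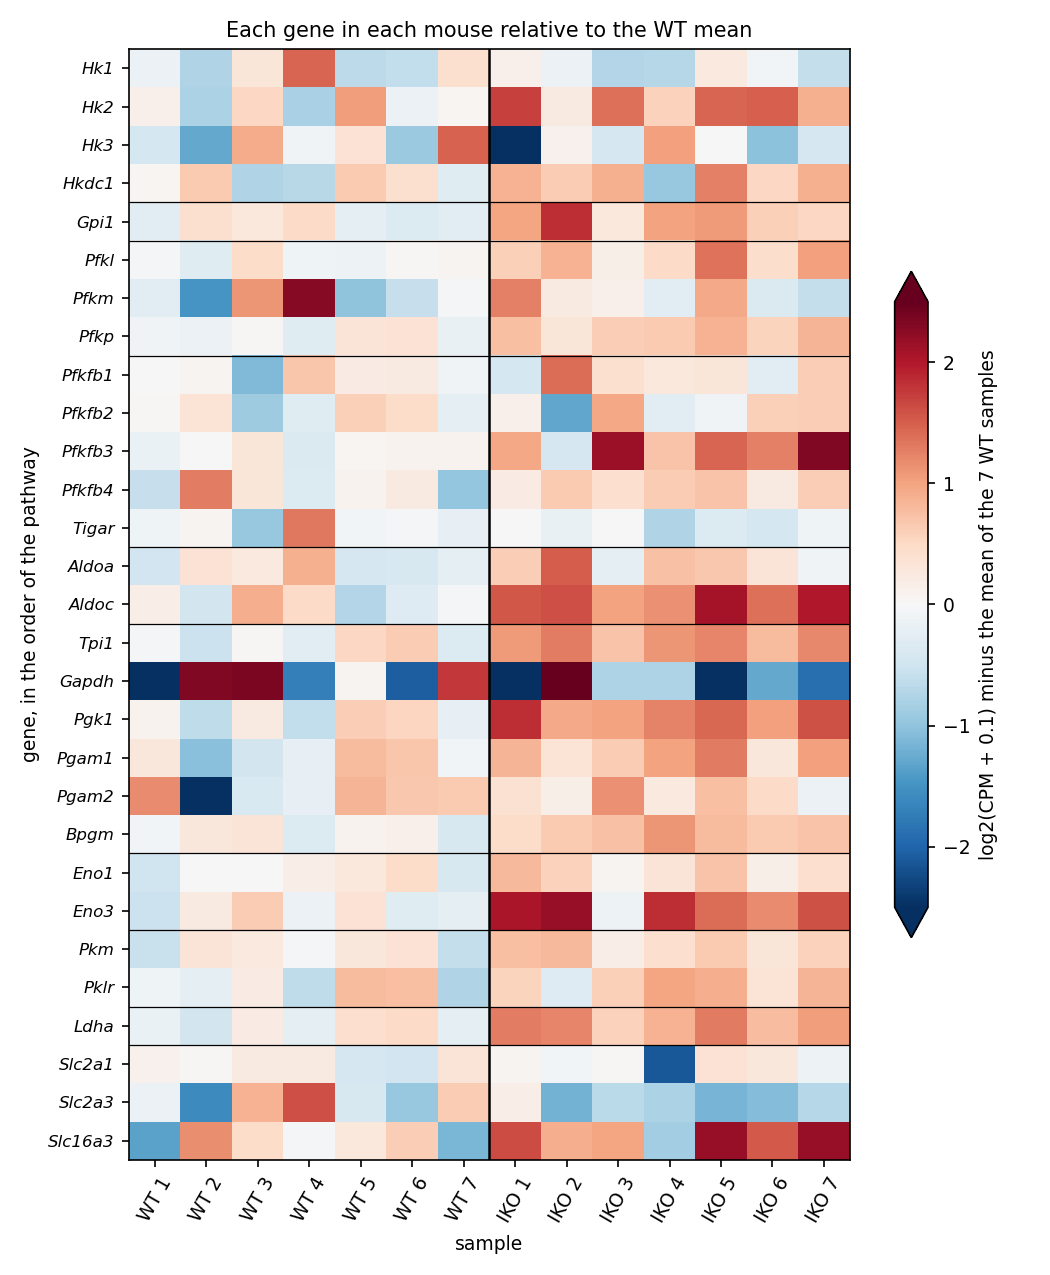
Each of the 29 tested genes (rows, in pathway order) in each of the 14 mice (columns), as log2(CPM + 0.1) minus the WT mean. Red is above and blue below the WT mean. WT 4 stands out in Hk1, Pfkm, Tigar and Slc2a3, and Gapdh varies from mouse to mouse within both genotypes.

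The mice did not share a common order over the 11 genes. IKO 3 was the lowest IKO mouse for 6 of them (Gpi1, Pfkl, Aldoc, Tpi1, Eno3 and Ldha) and IKO 2 for 4 (Hk2, Pfkp, Pfkfb3 and Pgk1), while IKO 2 was also the highest for Gpi1, Tpi1 and Eno3. IKO 5 was highest for 4. Among WT mice, WT 2 was lowest for 4 (Pfkl, Tpi1, Pgk1 and Ldha) and WT 3, with its high mitochondrial share, was highest for 5. IKO 4 was the highest IKO mouse for Bpgm and the lowest for none of the 11.

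A ratio of isoforms within a library depends on the scaling only through the pseudocount of 0.1 FPKM, which matters for genes near that level. Of 18 planned ratios, 16 could be computed from the FPKM. By the exact permutation test (two-sided, 7 against 7, smallest possible p 5.83e-04) 5 had an adjusted p of 0.035 over the 16. On the log2 scale, Eno3 over Eno1 was −2.39 ± 0.43 in WT and −1.39 ± 0.61 in IKO (SD, n = 7 each, exact p = 0.0058), and 6 of 7 IKO mice were above all WT mice. Aldoc over Aldoa was higher by 0.97 (exact p = 0.011) and Hk2 over Hk1 by 1.35 (exact p = 0.011). Pfkfb2 over Pfkfb3 fell by 1.09 (exact p = 0.0029) and Tigar over Pfkfb3 fell by 1.43 (exact p = 0.0099). All 5 ratios overlapped between the genotypes. The calls were fragile, although the differences kept their sign. None passed without WT 4, WT 6, WT 7, IKO 1, IKO 4, IKO 5, IKO 6 or IKO 7 (each left out in turn), and none passed without WT 4 and IKO 4 together. Without IKO 3 there were 2, without WT 5 there were 3, and without WT 3 and IKO 4 there was 1, Pfkfb2 over Pfkfb3. With a pseudocount of 1 FPKM and all mice there were 4, and Aldoc over Aldoa was not among them. Among the ratios that did not pass were Pfkp over Pfkl, which differed by −0.04 (SE 0.18, exact p = 0.85), and Pklr over Pkm, which differed by 0.04 (SE 0.28, exact p = 0.90). Ratios with the leading hexokinase or PFKFB gene did not pass either. Hkdc1 over Hk1 differed by 0.85 (SE 0.55, exact p = 0.15) and Hkdc1 over Hk2 by −0.49 (SE 0.40, exact p = 0.24). Pfkfb4 over Pfkfb3 differed by −0.68 (SE 0.44, exact p = 0.15).

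**Figure D4:**
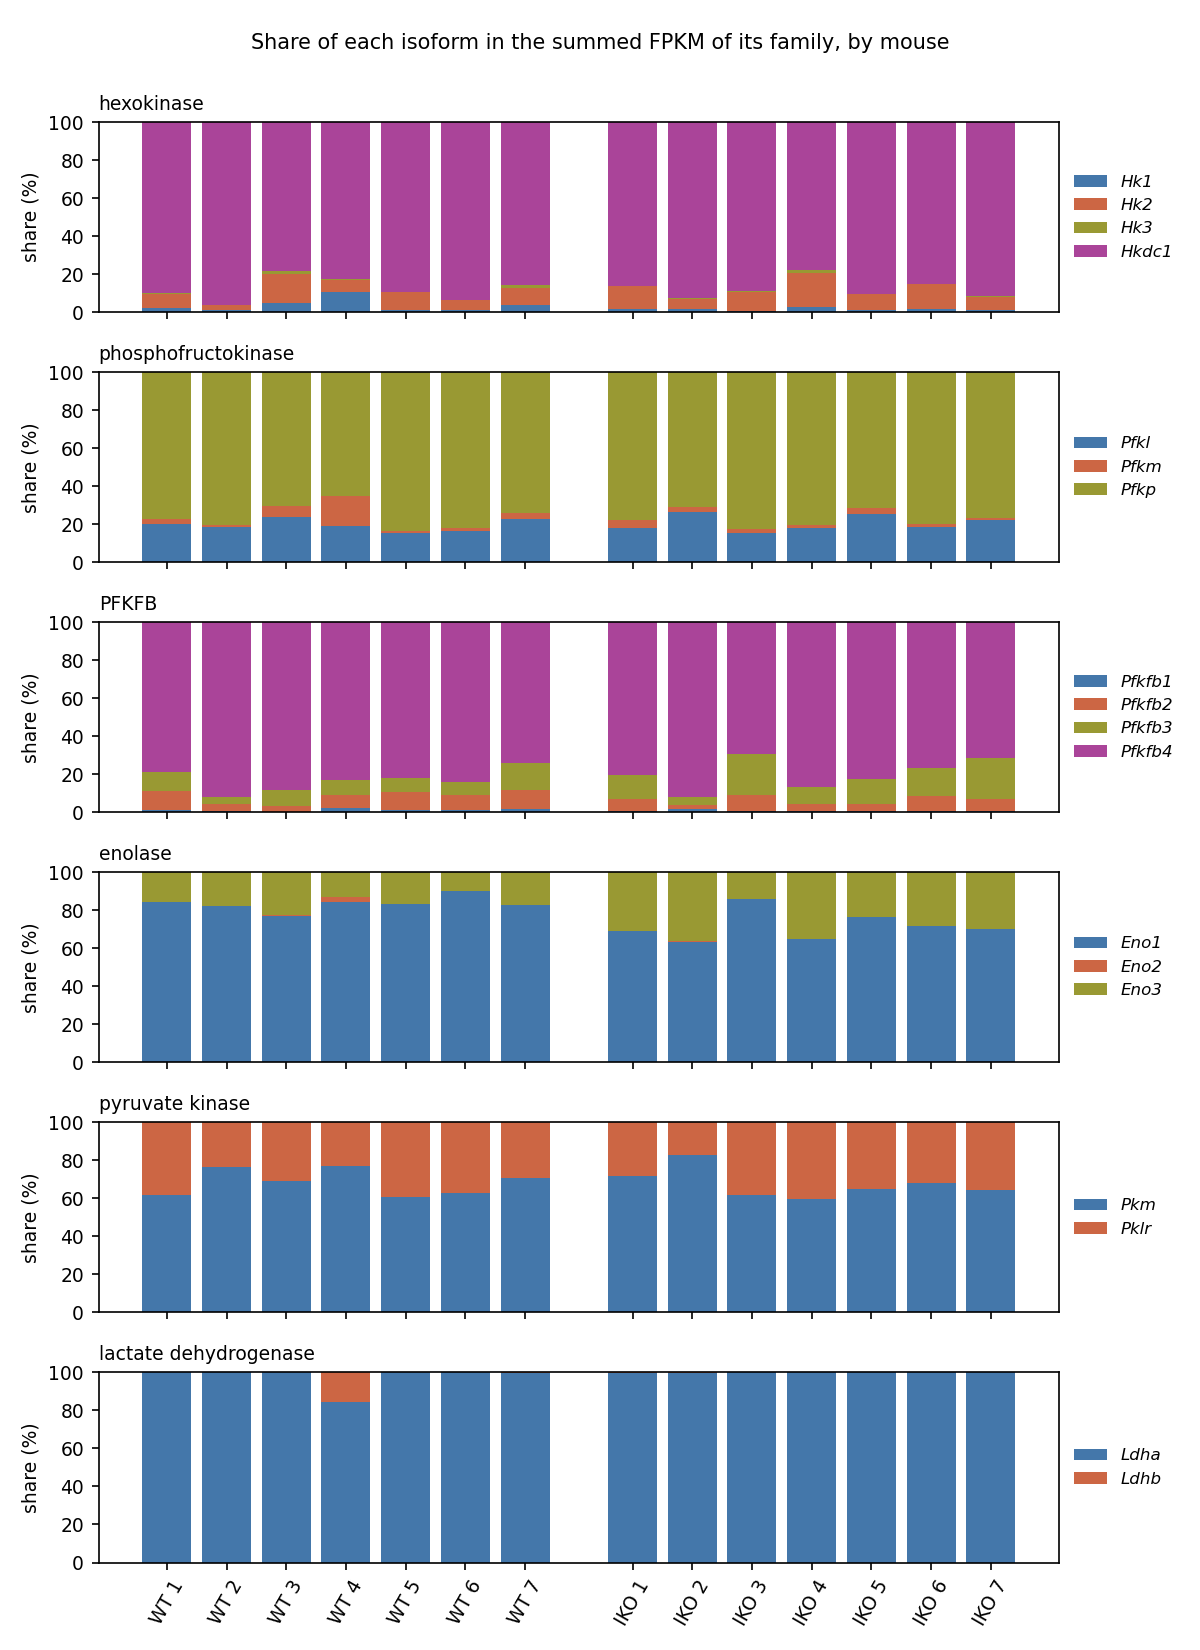
Share in percent of each isoform in the summed FPKM of its family (y axis) in each mouse (x axis), with 6 families from hexokinase to lactate dehydrogenase. Hkdc1, Pfkp, Pfkfb4, Eno1, Pkm and Ldha hold most of their family in every mouse, and Eno3 takes 10.1% to 22.7% in WT and 14.2% to 36.4% in IKO.

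The shares of the leading isoform were close in both genotypes for most families. Hkdc1 held 87.9% ± 6.07 of the hexokinase FPKM in WT and 87.5% ± 5.04 in IKO, Pfkfb4 83.1% ± 5.92 and 79.8% ± 8.11, and Pkm 68.4% ± 6.90 and 67.6% ± 7.71 (SD, n = 7 each). Eno1 held 83.4% ± 3.76 and 71.7% ± 7.62. The lower share of Eno1 in IKO reflects the same values as the ratio of Eno3 to Eno1.

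Neighbouring pathways were read from lists of genes outside the 31, on the TMM scale. Calls of these genes on total counts are not given. The lists stand beside all genes tested, which had a median of −0.09 and of which 4.38% passed as higher and 8.67% in either direction. In the pentose phosphate pathway, which branches off at glucose-6-phosphate, 2 of 9 tested genes rose, and both make NADPH: G6pdx by 0.85 (SE 0.16, edgeR, adjusted p = 0.0080) and Pgd by 0.85 (SE 0.17, adjusted p = 0.0088) on the log2 scale. The list had a median of 0.42, with 4 genes at an unadjusted p under 0.05 and 3 called by DESeq2, all higher. In the shuttles that move cytosolic NADH electrons into mitochondria, 4 of 10 rose, with a median of 0.71: Got1 by 1.06, Gpd1 by 0.94, Mdh1 by 0.91 and the carrier Slc25a11 by 0.71. At an unadjusted p under 0.05 there were 6, and DESeq2 called the same 6, all higher. Of 8 gluconeogenic genes, 2 rose, which were G6pc, the phosphatase that frees glucose, by 2.17 (SE 0.50, adjusted p = 0.018), and Pcx, which carboxylates pyruvate, by 0.95 (SE 0.20, adjusted p = 0.011). The list had a median of 0.19, and the same 2 genes had an unadjusted p under 0.05 and were called by DESeq2.

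Among 18 tested genes of the hypoxia-inducible factors and their targets 3 rose, with a median of 0.33: Bnip3, a mitophagy receptor, by 1.27 (SE 0.27, edgeR, adjusted p = 0.013), Epas1, the factor HIF-2α, by 0.68 (SE 0.16, adjusted p = 0.022) and Egln3, a prolyl hydroxylase, by 0.96 (SE 0.24, adjusted p = 0.029). At an unadjusted p under 0.05 there were 6, all higher, and DESeq2 called 4 as higher, adding Ddit4. Hif1a did not pass (0.11, SE 0.37). Of 14 other regulators such as Myc and Txnip, 0 passed with edgeR, 4 had an unadjusted p under 0.05 and 2, Arrdc4 and Mlx, passed with DESeq2. Their median was −0.09. Of 12 tested glycogen genes, 1 fell, Phkb, a phosphorylase kinase subunit, by 0.64 (SE 0.18, adjusted p = 0.038), and the list had a median of −0.62. In that list 4 had an unadjusted p under 0.05, all lower, and DESeq2 called Phkb alone. Of 5 genes of the serine branch 0 passed with edgeR, with DESeq2 or at an unadjusted p under 0.05, with a median of 0.08. Of 19 other glycolysis isoforms and carriers, with a median of 0.08, Pgm2, a phosphoglucomutase, rose by 0.82 (SE 0.14, adjusted p = 0.0044), and Slc2a2, the basolateral glucose carrier GLUT2, fell by 2.11 (SE 0.60, adjusted p = 0.042). Among these 19, 3 were higher and 6 lower at an unadjusted p under 0.05, and DESeq2 called 1 as higher and 3 as lower. With 8.67% of all genes tested passing in either direction, the counts of 1 of 12 glycogen genes and 2 of 19 other isoforms and carriers lay near the background. Slc2a2 ranged from 31.4 to 306 CPM in WT and from 9.49 to 95.1 CPM in IKO, with overlap.

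Of the tested markers of cells in the mucosa only Fabp1 of enterocytes and Avil of tuft cells passed with edgeR. The 10 enterocyte markers summed to 20601 to 99712 CPM in WT and 47016 to 87215 CPM in IKO, their median log2 fold change was 0.37, and Fabp1 passed as higher. All 6 markers of stem and dividing cells had a log2 fold change below 0, with a median of −1.04 and sums of 121 to 351 CPM in WT and 85.8 to 220 CPM in IKO. None of the 6 passed with edgeR, 4 had an unadjusted p under 0.05 and 1, Mki67, passed with DESeq2. The 7 smooth muscle markers had a median of −3.10, with 1 at an unadjusted p under 0.05 and 0 calls by edgeR or DESeq2. They summed to 11029 CPM in WT 4, to 5.39 to 66.5 CPM in the other WT mice and to 4.82 to 810 CPM in IKO. All 5 tested fibroblast markers were below 0 with a median of −2.003, 4 had an unadjusted p under 0.05, and 0 passed with edgeR and 1, Pdgfra, with DESeq2. The fibroblast list summed to 354 CPM in WT 4, to 6.28 to 62.9 CPM in the other WT mice and to 8.32 to 44.7 CPM in IKO. All 4 tested macrophage markers and all 5 T cell markers were below 0 as well, with medians of −0.42 and −0.39. Of these 0 passed with edgeR, and 1, Cd4, had an unadjusted p under 0.05 and passed with DESeq2. Of 4 tested tuft cell markers, 1, Avil, fell by 1.17 (SE 0.33, edgeR, adjusted p = 0.041), and Dclk1 passed as lower with DESeq2 alone, as did Neurod1 of enteroendocrine cells. The 5 B and plasma cell markers had a median of −1.82, with 3 at an unadjusted p under 0.05 and 0 calls by either tool, and with sums of 111 to 707 CPM in WT and 84.7 to 424.5 CPM in IKO. The 4 tested erythrocyte markers had a median of 1.21, with 3 at an unadjusted p under 0.05 and 0 calls by either tool, and with sums of at most 24.3 CPM in WT and 52.3 CPM in IKO. The part of cell composition in the glycolysis values was not tested, and in bulk mucosa fewer cells of a type and less RNA per cell cannot be told apart. Of all markers read, Myh4 of skeletal muscle was at 0 in every mouse, and the skeletal muscle list summed to 2.67 to 31.5 CPM in WT and 3.13 to 12.8 CPM in IKO.

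Some of the 31 genes have near copies elsewhere in the genome that can take or lend reads. Rows named as copies of Tpi1 held 67 to 283 counts against 5142 to 21580 for Tpi1, those of Ldha 5 to 82 against 11056 to 46480, and those of Pgk1 2 to 48 against 2074 to 12865. Copies under other names were not counted. The values of Tpi1, Ldha, Pgk1, Pgam1, Eno1 and Gapdh are uncertain to the extent that reads were split between copies.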

How the data were processed

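RNA of the ileum mucosa of 7 WT and 7 IKO mice was sequenced as 150-base paired-end reads from 1 µg of RNA per library. The authors aligned the reads with HISAT2 2.0.5 and counted them per gene with featureCounts 1.5.0-p3 on mm10, and these counts were deposited unscaled. The strand setting and annotation release are not given in the sources used here. The FPKM deposited by the authors equal counts over gene length divided by a DESeq2 size factor. Columns without a sample numbered 0.

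Groups follow the sample labels. Counts were tested with edgeR 4.0.16 in R 4.3.3 (filterByExpr, TMM, quasi-likelihood test, genotype only, Benjamini-Hochberg over all 13846 genes tested, threshold 0.05). CPM use the TMM-scaled library size. Depth was 14749669 to 21557468 counts per sample. Isoform ratios are log2 ratios of FPKM with a pseudocount of 0.1, tested by exact permutation over samples, and 1 of them is not reported here. Alternatives were DESeq2 1.42.0, limma 3.58.1 on FPKM and with sample weights, other filters and scalings, a replicate block and samples left out. The 2 fits on total counts were added after seeing the data.

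The genes and lists were chosen with earlier results of these data known. Every gene of the set is accounted for, and full values are given for those that passed, did not overlap or led their step by FPKM. From the other lists at most 4 genes that passed are named, by smallest adjusted p. Promoter windows were matched by symbol for 30 of the 31 genes. P-values weigh the difference between the genotypes against the spread between these mice.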

Additional observations from a re-analysis of the deposited data

Results flagged for a closer look

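The highest or lowest of the 7 mice of a genotype stood far from the rest in 8 of the 90 groups examined (45 measures in 2 genotypes), where about 4.5 would arise by chance. Each value below is the gap to the nearest mouse as a fraction of the range of the group.

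IKO 4, with 50.3% of its counts on mitochondrially encoded genes, was the lowest IKO mouse for Hkdc1 (0.664), Slc2a1 (0.799) and Slc16a3 (0.585). On the log2 CPM scale it was at 7.07 against 8.53 for the nearest mouse in Hkdc1, at 1.27 against 3.25 in Slc2a1 and at 4.37 against 6.16 in Slc16a3. The part of the mitochondrial share in these values was not tested.

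IKO 2 was the highest IKO mouse for Gapdh (0.715), at 9.13 against 4.17 log2 CPM for the nearest mouse. WT 2 was the lowest WT mouse for Pgam2 (0.597) and for the ratio of Pgam2 to Pgam1 (0.656), on as few as 1 count of Pgam2. IKO 3 was the lowest IKO mouse for Eno3 (0.574), and IKO 1 the highest IKO mouse for Slc2a3 (0.624).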

How the results depend on the processing

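The counts of calls moved more than the fold changes. With all genes 1200 were called by the reported fit, 508 without a filter on low counts, 2571 with DESeq2, 1889 with sample weights, 606 without WT 4 and IKO 4, 648 without WT 3 and IKO 4, 3380 on total counts and 3561 on the nuclear total, and 515 to 1371 when 1 mouse was left out. Of the glycolysis genes 11 were called, 5 on total counts and 7 on the nuclear total (Slc2a3, lower, included in both), and 7 to 12 when 1 mouse was left out. The isoform ratios called were 5, with 0 without WT 4 and IKO 4, 1 without WT 3 and IKO 4, and 0 to 5 when 1 mouse was left out. The cause of these shifts was not tested.

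The sample titles share numbers, but same-numbered mice did not deviate together (correlation −0.305 to 0.232, and 1 of 7 matched its own number best). With the replicate number as a block 362 genes, 4 glycolysis genes (Hk2, Pfkfb3, Aldoc and Pgk1) and 0 ratios were called.

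Of 803 fold changes of single members under the alternatives 721 kept direction and call, 46 lost the call, 7 gained it and 29 changed sign, and none of the 29 concerned the 11 called genes. Pfkm was 0.24 with the block, 0.022 by limma on FPKM + 1 with or without a filter, 0.18 with FPKM + 0.1, 0.59 with sample weights, 0.58 without WT 4 and IKO 4, and −0.46 to 0.50 with 1 mouse left out. Gapdh was −0.80 with the block, with FPKM + 0.1 and with sample weights, −0.67 with FPKM + 1 with or without a filter, and −2.60 to 0.80 with 1 mouse left out. Hk1 was 0.033 with sample weights and 0.014 without WT 4 and IKO 4, where Tigar was 0.015. Slc2a1 was 0.20 with sample weights, 0.11 without WT 4 and IKO 4 or without WT 3 and IKO 4, and −0.18 to 0.080 with 1 mouse left out. Pgam2 was −0.11 with sample weights, −0.33 on total counts, −0.26 on the nuclear total, and −0.085 to 0.31 with 1 mouse left out. Pfkfb2 was −0.19 on total counts, −0.14 on the nuclear total and −0.021 to 0.32 with 1 mouse left out, and Pfkfb1 was −0.013 on total counts. Of the ratios, the log2 ratio Pfkp/Pfkl was 0.028 with a pseudocount of 1 and −0.12 to 0.050 with 1 mouse left out, the log2 ratio Bpgm/Pgam1 was 0.059 without WT 3 and IKO 4 and −0.16 to 0.17, and the log2 ratio Pklr/Pkm was −0.15 without WT 4 and IKO 4, −0.057 without WT 3 and IKO 4 and −0.063 to 0.23. Pgam2, Hk3, Eno2 and Slc2a3 rested on few counts.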
